A study of Mus musculus with 12 samples.

Results

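The R-spondins and a group of genes that canonical Wnt signalling is commonly read by were examined in autopods, which form the hand and the foot, of mouse embryos. The set was named by 10 genes: the ligands Rspo1, Rspo2, Rspo3 and Rspo4, the receptors Lgr4 and Lgr5, and the response genes Axin2, Lef1, Tcf7 and Nkd1. Every probe set annotated to exactly 1 of these genes was taken, which gave 18 of the 45265 probe sets of the series, namely 7 of 22690 on A and 11 of 22575 on B. They covered 9 of the 18194 genes that have such a probe set. No probe set was annotated to Tcf7 alone, and Tcf7 was not analysed here.

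Total RNA came from 3 hindlimb autopods (samples 12, 14 and 26) and 3 forelimb autopods (samples 11, 13 and 25), all wild type and of stage E12.5. Every sample was run on an A and on a B chip of the Affymetrix MOE430 pair, which makes 12 arrays. On the A array the label of forelimb 11 names no limb, and its group rests on a letter of its title. The titles of hindlimb 12 hold an additional letter B on both arrays, and what it stands for is not known here. The labels do not say whether samples were single embryos or pools, so the p-values below measure the spread between these samples, which may be technical. The signal of Tbx5, a transcription factor of the forelimb, on the A array was 29.3, 174 and 29.7 in hindlimb 12, 14 and 26, against 1145, 1325 and 1381 in forelimb 11, 13 and 25. Hindlimb 14 stood above the other hindlimb samples there. Pitx1, a factor of the hindlimb, had 478, 678 and 501 in hindlimb 12, 14 and 26, against 160, 99.0 and 102 in forelimb 11, 13 and 25, so on both genes forelimb 11 lay with the forelimb. On the B array Tbx4, another factor of the hindlimb, had 4497 to 5558 in hindlimb and 1124 to 1251 in forelimb. All 8 markers of limb mesenchyme reached a signal of 100 on at least 1 A array. Of the 11 ectoderm markers on the A array, 8 reached 100 on at least 3 of the 6 arrays. The others, Fgf8, Sp6 and En1, were below 100 on all 6, but another probe set of Sp6 had 384 to 762 on the B array.

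R-spondins are secreted proteins that bind receptors of the Lgr family and strengthen Wnt signalling by removing the ubiquitin ligases Znrf3 and Rnf43, which otherwise take Frizzled receptors off the cell surface. The Wnt signal then lets beta-catenin enter the nucleus and act with DNA-binding factors of the TCF/LEF family, among them Lef1 and Tcf7. Axin2 and Nkd1 are induced by the pathway in many tissues and feed back on it as inhibitors. In the limb bud Rspo2 is known from the apical ectodermal ridge, and mouse mutants of Rspo2 lose distal limb structures.

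The promoters of Axin2 and Lef1 are shown because these 2 genes are the usual transcriptional readouts among the members, and because TCF/LEF factors bind sequences built on the letters CTTTG. Each window runs from 250 bases before to 50 bases after an annotated start, from RefSeq on GRCm38.p6, at chr11:108920099-108920398 on the plus strand for Axin2 and at chr3:131110047-131110346 on the plus strand for the first of 4 Lef1 starts. Capitals mark CTTTG on either strand.
Axin2: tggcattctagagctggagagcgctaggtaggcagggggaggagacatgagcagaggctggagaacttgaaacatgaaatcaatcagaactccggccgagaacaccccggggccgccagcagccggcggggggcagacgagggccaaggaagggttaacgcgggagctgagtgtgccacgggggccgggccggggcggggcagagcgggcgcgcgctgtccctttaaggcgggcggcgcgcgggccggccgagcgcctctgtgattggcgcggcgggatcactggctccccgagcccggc
Lef1: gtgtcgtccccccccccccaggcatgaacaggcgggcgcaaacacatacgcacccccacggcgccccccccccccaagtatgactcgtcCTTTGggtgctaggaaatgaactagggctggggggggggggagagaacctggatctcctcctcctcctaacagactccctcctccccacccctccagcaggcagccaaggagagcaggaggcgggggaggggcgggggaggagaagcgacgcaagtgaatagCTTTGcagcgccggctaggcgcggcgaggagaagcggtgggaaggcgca
CTTTG or its reverse complement CAAAG stood at 2 places in this Lef1 window and at 0 in the Axin2 window, and 53.9% of all 32851 promoter windows held it. The longer forms CTTTGAT and CTTTGTT, which contain it, were in 3.7% and 5.9% of all windows and in 0 of the 11 windows of the 7 members that had an entry. A match is a description of the letters and not a binding site.

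**Figure D1:**
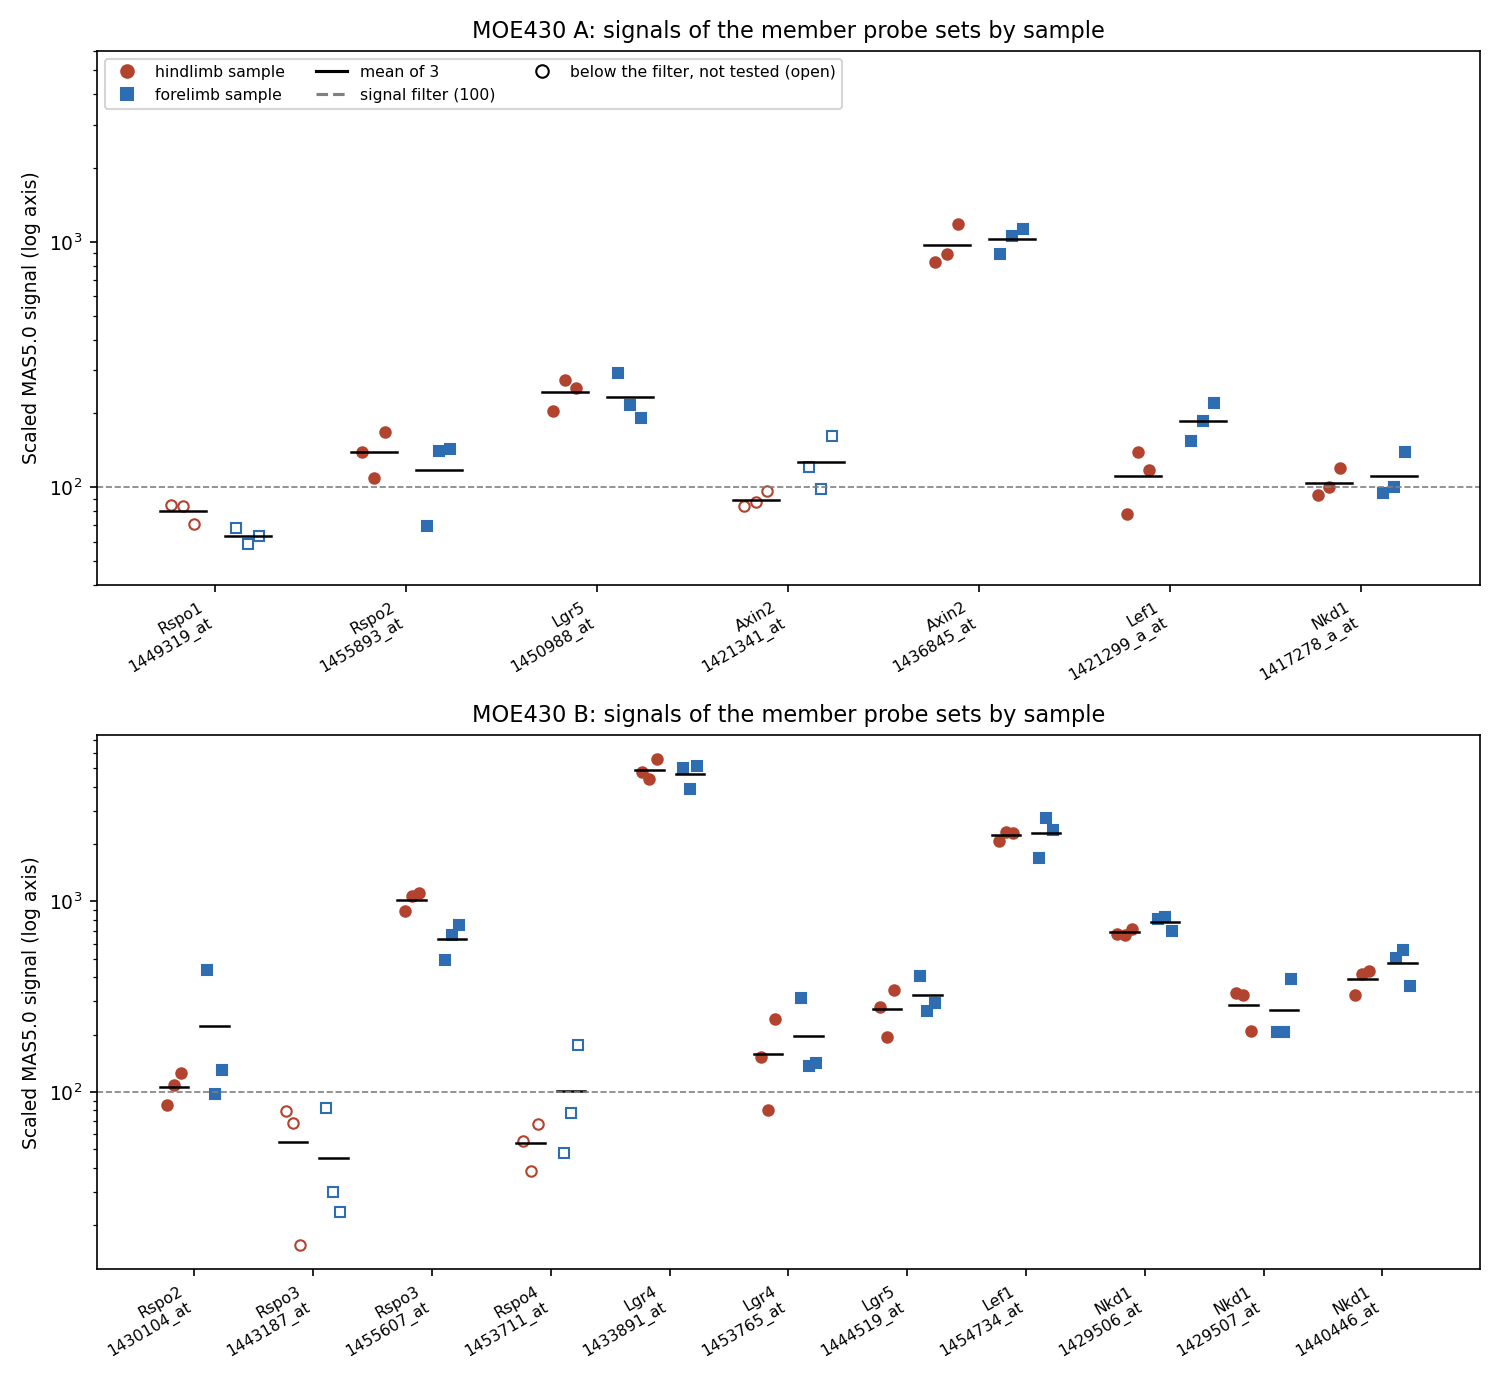
Scaled MAS5.0 signals (log axis) of the 18 member probe sets on the A array (top) and the B array (bottom), with hindlimb samples as red circles left of forelimb samples as blue squares and bars for the means of 3. Open symbols are probe sets below the signal filter (dashed line at 100), and the hindlimb samples of Rspo3 1455607_at lie at 886 to 1111, above the forelimb samples.

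Signals are the authors' MAS5.0 values, here scaled within each design to a 2% trimmed mean of 500. The B arrays were scaled from a lower level, and the signal of 1 probe set is not comparable with that of another, so only the limbs were compared. Of the 18 member probe sets, 14 reached a signal of 100 on at least 3 of the 6 arrays of their design and were tested, 5 on A and 9 on B. None of the 14 did so on the arrays of 1 limb alone. Hindlimb was set against forelimb on the log2(signal + 32) scale by limma over all tested probe sets of a design, and differences are hindlimb minus forelimb with n = 3 samples per limb. This scale understates the change of dim probe sets.

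At a limma adjusted p of 0.05 the calls among members were 0 of 5 on A and 0 of 9 on B, beside 0.0326% (A) and 0.0117% (B) of all tested probe sets. At an unadjusted p under 0.05 there was 1 member on each array, Lef1 on the A array and Rspo3 on the B array, where 5.54% of all tested probe sets reached it on either array. On the same 2 probe sets the limbs did not overlap, which is 1 of 5 members on the A array beside 11% of all tested probe sets, and 1 of 9 on the B array beside 10.9%. The difference was negative for 8 of the 14 and positive for 6. Over all tested probe sets 52.2% were negative on either array. The members' median difference was -0.066 (A) and -0.17 (B), and that of all tested probe sets -0.0086 (A) and -0.014 (B). With so few members tested, 1 probe set per array is no result about the group as a whole.

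**Figure D2:**
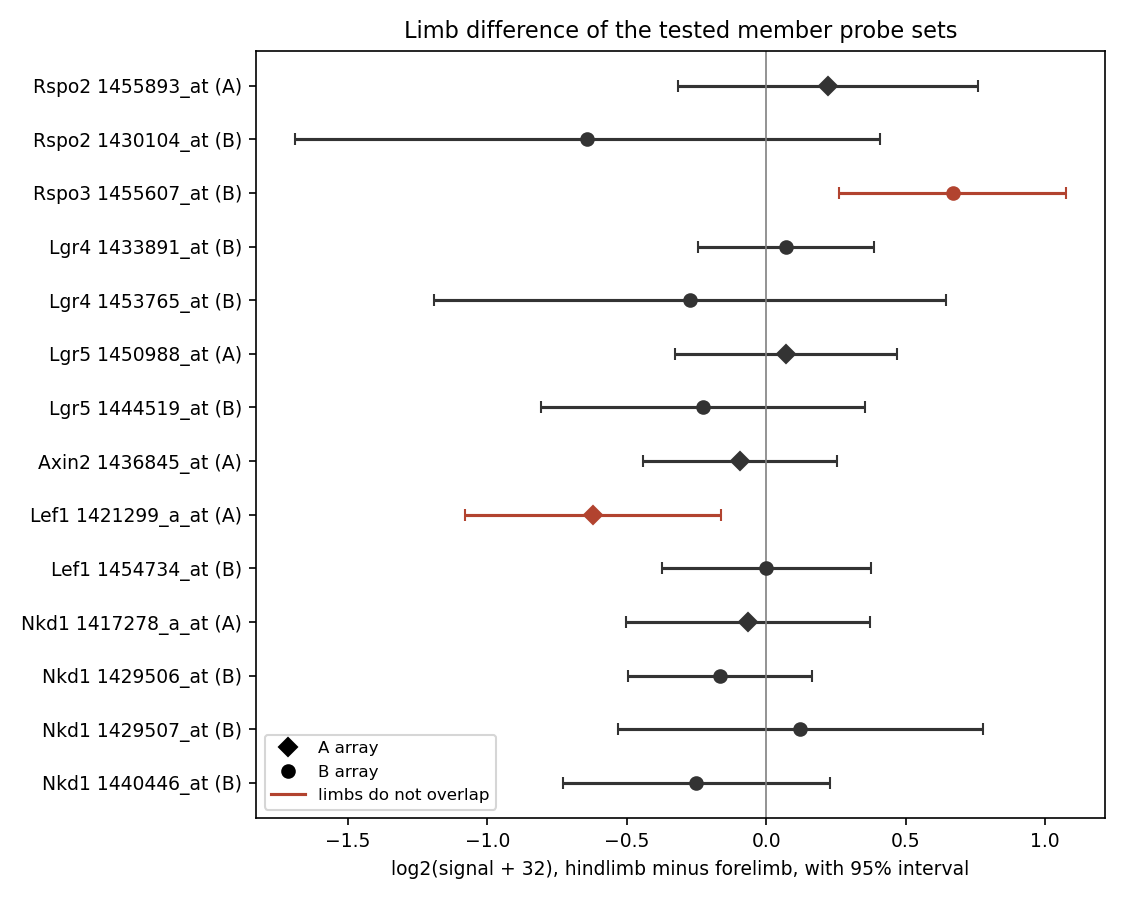
Difference of log2(signal + 32), hindlimb minus forelimb, with its 95% interval for the 14 tested member probe sets (diamonds, A array; circles, B array). Rspo3 1455607_at at 0.67 and Lef1 1421299_a_at at -0.62, drawn in red, are the 2 whose limbs do not overlap; the other intervals include 0.

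Among the ligands, Rspo3 had the difference of smallest p, with every hindlimb sample above every forelimb sample but not past the adjusted threshold. Rspo3 is an R-spondin known from mesenchyme and from vessels of the embryo. Its brighter probe set, 1455607_at on the B array, had signals of 886, 1066 and 1111 in hindlimb 12, 14 and 26, against 489.9, 669 and 751 in forelimb 11, 13 and 25. Hindlimb 12 was the lowest of its limb and forelimb 25 the highest of its own, and the limbs did not overlap. Rspo3 averaged 1021 ± 119 in hindlimb and 637 ± 134 in forelimb (SD, n = 3 each), a difference of 0.67 ± 0.18 (SE, 95% interval 0.26 to 1.08) or 1.59-fold. The limma p was 0.00412 and the adjusted p 0.775, and the probe set ranked 82 by p among the 17145 tested on the B array. In tissue RNA of this kind a change in the number of cells that make a transcript cannot be told apart from a change per cell. Without forelimb 11, the lowest of the 6, the difference was 0.50 (adjusted p = 0.971), and with each other sample left out it was 0.61 to 0.79. RNA quality was read from the Gapdh control probe sets as log2 of 3' over 5' signal, and it overlapped between the limbs on B (-0.17 to -0.11 in hindlimb, -0.25 to -0.073 in forelimb). The second Rspo3 probe set, 1443187_at, was below 100 on all 6 arrays (15.7 to 79.3 in hindlimb, 23.6 to 82.1 in forelimb, overlapping) and was not tested.

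Rspo2 was dim on both arrays, and its 2 probe sets differed in sign. On the A array 1455893_at had signals of 140.0, 109 and 169 in hindlimb 12, 14 and 26, against 69.8, 141 and 143 in forelimb 11, 13 and 25. On the B array 1430104_at had 85.7, 109 and 125 in hindlimb 12, 14 and 26, against 436, 97.8 and 131 in forelimb 11, 13 and 25. Forelimb 11 stood apart both times, as the lowest sample on the A array and the highest on the B array, and the other 5 samples overlapped between the limbs. The differences were 0.22 ± 0.24 (adjusted p = 0.978 in limma) and -0.64 ± 0.48 (adjusted p = 0.924). Without forelimb 11 they were -0.035 and -0.078. The 95% interval on the B array, -1.69 to 0.41, is the widest of the 14 tested probe sets.

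Rspo1 and Rspo4 lay below the signal filter and were not tested. Rspo1 1449319_at, on the A array, had signals of 85.0, 84.1 and 71.0 in hindlimb 12, 14 and 26, against 68.4, 58.7 and 63.6 in forelimb 11, 13 and 25. The limbs did not overlap, but every value was below the filter of 100. Rspo4 1453711_at, on the B array, had 55.0, 38.6 and 67.8 in hindlimb 12, 14 and 26, against 47.9, 77.1 and 177 in forelimb 11, 13 and 25. Forelimb 25 was the 1 sample of Rspo4 above 100, and the limbs overlapped. Detection calls were not used here, so whether these signals exceed background is not known.

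The R-spondin receptors did not differ detectably. Lgr4, a receptor of broad expression, was read brightly on the B array by 1433891_at, with 4789, 4385 and 5576 in hindlimb 12, 14 and 26, against 5027, 3897 and 5138 in forelimb 11, 13 and 25. The Lgr4 limbs overlapped, with a difference of 0.072 ± 0.14 and a 95% interval of -0.24 to 0.39 (limma adjusted p = 0.966). This interval is the narrowest of the 14 and leaves out a change of the size measured for Rspo3, 0.67. The dimmer Lgr4 probe set 1453765_at had 80.7 to 241 in hindlimb and 136 to 310.0 in forelimb, overlapping, with a difference of -0.27 ± 0.42.

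Lgr5 is a receptor for R-spondins and in several epithelia a target of the pathway as well. On the A array 1450988_at had 205, 275 and 255 in hindlimb 12, 14 and 26, against 293, 216 and 191 in forelimb 11, 13 and 25, with a difference of 0.072 ± 0.18 (95% interval -0.33 to 0.47). On the B array 1444519_at had 279, 195 and 342 in hindlimb 12, 14 and 26, against 406, 266 and 291 in forelimb 11, 13 and 25, with a difference of -0.23 ± 0.26 (95% interval -0.81 to 0.36). The limbs overlapped on both Lgr5 probe sets, and forelimb 11 was the highest sample on each. The limma adjusted p was 0.995 and 0.948.

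Axin2, a scaffold protein that promotes breakdown of beta-catenin, differed little on its bright probe set. On the A array 1436845_at had 824, 895 and 1185 in hindlimb 12, 14 and 26, against 891, 1061 and 1133 in forelimb 11, 13 and 25. It averaged 968 ± 191 in hindlimb and 1028 ± 124 in forelimb (SD, n = 3 each), a difference of -0.094 ± 0.16 (95% interval -0.44 to 0.25, limma adjusted p = 0.993). The dimmer Axin2 probe set 1421341_at had 84.0, 87.0 and 96.8 in hindlimb 12, 14 and 26, against 121, 98.1 and 162 in forelimb 11, 13 and 25. On this probe set all 3 hindlimb samples lay below all 3 forelimb samples, hindlimb 26 and forelimb 13 being close, but 2 arrays alone reached 100 and it was not tested.

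Lef1, the DNA-binding partner of beta-catenin, had limbs without overlap on 1 of its 2 probe sets. On the A array 1421299_a_at had 78.3, 139 and 118 in hindlimb 12, 14 and 26, against 154, 187 and 219.9 in forelimb 11, 13 and 25. The hindlimb samples all lay below the forelimb samples, with a difference of -0.62 ± 0.21 (95% interval -1.08 to -0.16), a limma p of 0.0129 and an adjusted p of 0.675. On the B array 1454734_at had 2089, 2321 and 2288 in hindlimb 12, 14 and 26, against 1689, 2747 and 2385 in forelimb 11, 13 and 25. Here the limbs overlapped, with a difference of 0.00079 ± 0.17 (95% interval -0.37 to 0.37, adjusted p = 0.999). The 95% intervals of the 2 Lef1 probe sets overlapped. Set against each other within the numbered samples, the A and the B probe set of Lef1 differed by -0.62 in their limb difference (exact two-sided permutation p = 0.1, the smallest that 3 against 3 samples can give; 0.7 adjusted over the 10 pairs of tested probe sets of 1 gene). For Gapdh, log2 of 3' over 5' signal did not overlap between the limbs on A (-0.30 to -0.26 in hindlimb, -0.24 to -0.078 in forelimb), and its part in the Lef1 value was not tested.

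Nkd1, an inhibitor that binds the Dishevelled proteins, was read by 4 tested probe sets. Its brightest on the B array, 1429506_at, had 676, 669.9 and 716 in hindlimb 12, 14 and 26, against 805, 828 and 696 in forelimb 11, 13 and 25. Forelimb 25 lay among the hindlimb samples, and the difference was -0.17 ± 0.15 (95% interval -0.50 to 0.17, limma adjusted p = 0.930). The other Nkd1 probe sets gave -0.25 ± 0.22 (1440446_at) and 0.12 ± 0.30 (1429507_at) on the B array and -0.066 ± 0.20 (1417278_a_at) on the A array. The limbs overlapped on all 4, and on 3 of them the sign was negative.

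**Figure D3:**
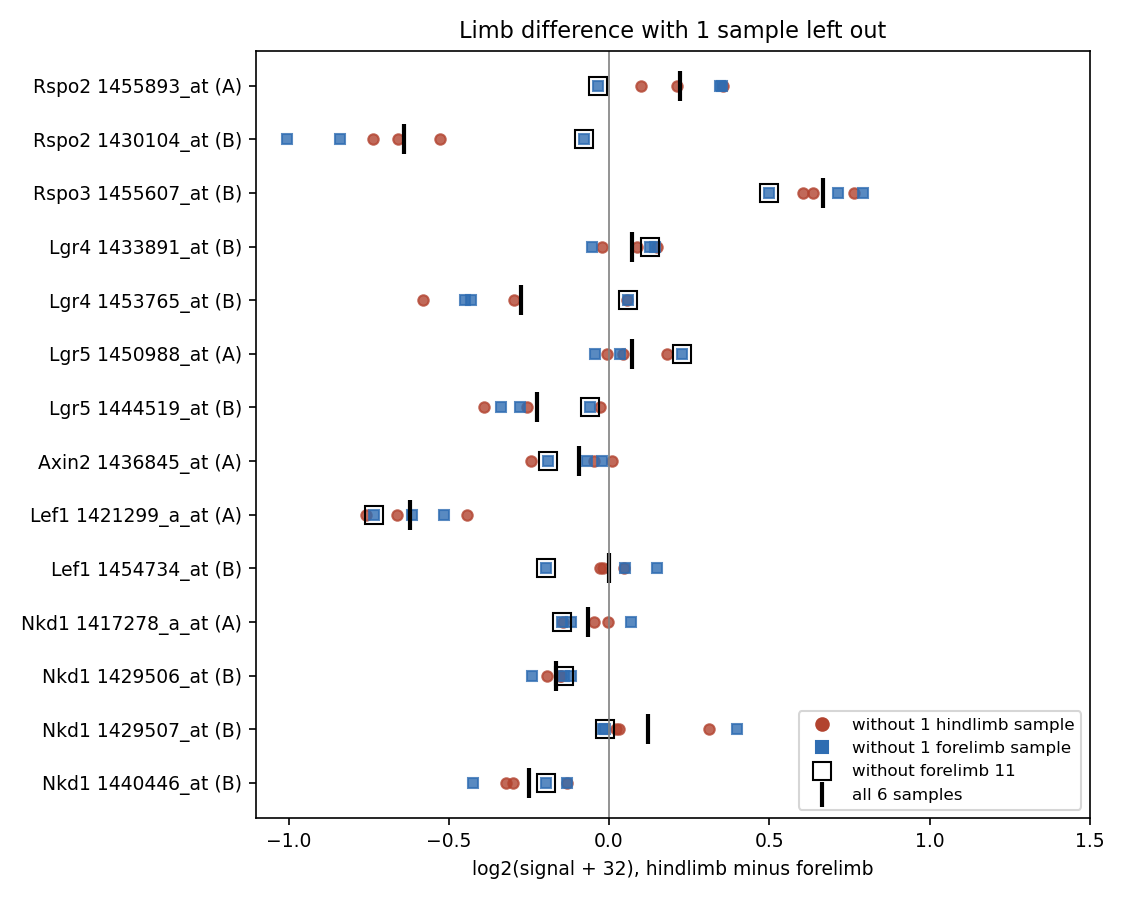
Difference of log2(signal + 32), hindlimb minus forelimb, for the 14 tested member probe sets with all 6 samples (black bar) and with 1 hindlimb sample (red circles) or 1 forelimb sample (blue squares) left out; the outlined square is without forelimb 11. Rspo3 1455607_at runs from 0.50 to 0.79 and Lef1 1421299_a_at from -0.76 to -0.44, and both Rspo2 probe sets come near 0 without forelimb 11.

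Forelimb 11 had the highest or the lowest signal of the 6 samples on 7 of the 14 tested member probe sets, 2 of 5 on A and 5 of 9 on B. The other samples did so on 3 to 5 of the 14, with forelimb 13 also at 5 of 9 on B, and hindlimb 12 and forelimb 25 each at 3 of 5 on A. Over all tested probe sets the share of forelimb 11 was 35.5% (A) and 38.3% (B), and the other samples had 28.6% to 41.6% (A) and 29.7% to 35.8% (B). Hindlimb 14 (41.6%) and hindlimb 12 (36.2%) were above forelimb 11 on A. With 1 sample left out, the limma adjusted p was 0.686 or above for Rspo3 and 0.591 or above for Lef1 on the A array. Of the 10 pairs of tested probe sets of 1 gene, Lef1 was the pair with the smallest exact p, and the exact p of the others was 0.4 to 0.7. With 3 samples per limb such a test cannot pass 0.05, so agreement or disagreement of probe sets is described and not shown.

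Among the rest of the pathway limma called 0 of 54 genes tested on A and 0 of 33 tested on B. These counts use the brightest probe set of a gene. At an unadjusted p under 0.05 there were 5 of the 54 on A and 4 of the 33 on B, beside 5.84% (A) and 5.87% (B) of all tested genes counted the same way. The difference was negative for 44 of the 54 and for 20 of the 33, beside 53% (A) and 50.5% (B) of all tested genes. The Gapdh ratio of 3' over 5' signal did not overlap between the limbs on A, and its part in the A-array counts was not tested. Among other response genes (10 tested on the A array, 7 negative, median -0.19) the smallest p values belonged to Apcdd1, a membrane-bound Wnt inhibitor (-0.85 ± 0.16, adjusted p = 0.189), and Tnfrsf19, a receptor of the TNF family (-0.38 ± 0.15, adjusted p = 0.783). Apcdd1 had signals of 308, 340.3 and 346 in hindlimb 12, 14 and 26, against 786, 528 and 582 in forelimb 11, 13 and 25, with no overlap. On the B array Apcdd1 gave -0.34 with overlapping limbs and Dkk1, a secreted Wnt antagonist, -0.43, the 2 smallest p values among 5 response genes.

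The Frizzled and other Wnt receptors had 11 of 12 negative values on A (median -0.21) and 6 of 10 on B (median -0.11). Fzd8 came first by p on both, with -0.50 ± 0.14 (adjusted p = 0.599) on A and -0.63 ± 0.22 (adjusted p = 0.887) on B. Its A-array signals were 212, 242 and 201 in hindlimb 12, 14 and 26, against 348, 308 and 308 in forelimb 11, 13 and 25, and the limbs did not overlap on either array. The 2 arrays share the numbered samples and are no independent repeats. Fzd4 (-0.48 on the A array) and Fzd5 (-0.60 on the B array) followed. Wnt ligands were negative for 9 of 9 genes on the A array (median -0.17, Wnt5b -0.36 and Wnt11 -0.23 first by p) and for 5 of 7 on the B array (median -0.065, Wnt9b -1.06 and Wnt4 -0.45). No ligand reached an unadjusted limma p under 0.05 on either array. Genes read in the same samples are not independent, so counts of signs are a description and no test. Wnt9b had signals of 80.0, 51.4 and 116 in hindlimb 12, 14 and 26, against 121, 461 and 132 in forelimb 11, 13 and 25, and without forelimb 13, which stood apart, the difference was -0.51. Intracellular components had medians of -0.10 (A, 23 genes) and 0.0084 (B, 11 genes). Tle2, a corepressor (-0.34), and Fbxw11, an F-box protein that binds beta-catenin (0.26), came first by p on the A array, and the coactivator Bcl9 (0.39) and the corepressor Tle3 (-0.31, or -0.054 without hindlimb 14) on the B array. The signs were opposite on the other array for Fbxw11 (-0.22 on B) and Bcl9 (-0.21 on A), and the same for Tle3 (-0.21 on A). None of these passed the adjusted threshold. The medians over the brightest probe set of all tested genes were -0.011 (A) and -0.0023 (B).

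**Figure D4:**
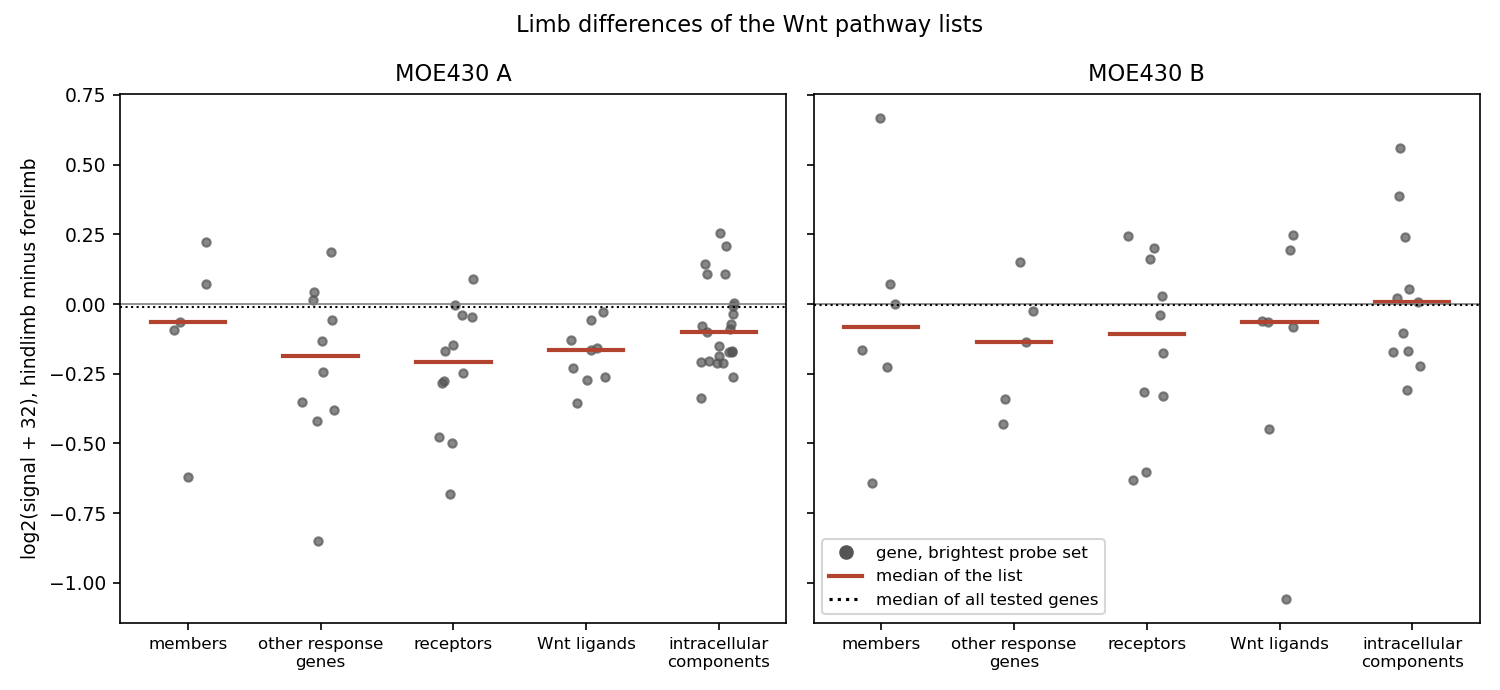
Difference of log2(signal + 32), hindlimb minus forelimb, of each tested gene by its brightest probe set, in the members and 4 lists of other Wnt pathway genes, for the A array (left) and the B array (right). Red bars are list medians, the dotted line is the median of all tested genes, and on the A array each list median lies below that line.

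Cell types that carry Wnt components were read by marker lists. The summed signal of 11 ectoderm markers on the A array was 3478 to 4111 in hindlimb and 4342 to 5542 in forelimb, without overlap, and 6 of the 8 tested were negative. Among them Krt15 gave -1.38, Krt14 -0.83 and Krt5 -0.40, whereas Epcam (-0.013), Cdh1 (0.013) and Trp63 (0.089) lay near 0 on this array. Krt14 had 540.0 to 827 in hindlimb and 982 to 1578 in forelimb, and Krt5 had 760 to 969 and 1121 to 1225. Apart from these keratins, each marker of the sum overlapped between the limbs. On the B array 5 ectoderm markers summed to 2058 to 2911 in hindlimb and 2143 to 3425 in forelimb, with overlap. All 5 were negative there, from -0.42 (Trp63) to -0.031 (Sp8 and Epcam). The 8 mesenchyme markers of the A array summed to 14426 to 17570 in hindlimb and 15418 to 16496 in forelimb, with overlap. Blood markers on A (6 genes) summed to 31572 to 35105 in hindlimb and 28164 to 30916 in forelimb, without overlap. The globins Hbb-y (13253 to 16125 over the 6 arrays) and Hba-x (10341 to 12949) made up most of that sum. Their differences were 0.18 and 0.075, and of the 5 blood markers tested Klf1 alone was negative (-0.32). The 7 endothelial markers summed to 1978 to 2135 in hindlimb and 2101 to 2220 in forelimb, with overlap. The part of all these markers in the values of Rspo3, Lef1, Apcdd1 and the Frizzled genes was not tested.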

How the data were processed

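RNA of 6 autopod samples was measured on MOE430 A and B arrays. The authors deposited linear MAS5.0 signal intensities, per the labels (forelimb 11 on the A array has no such note). The sources used here give neither a software version nor detection calls. The deposited intensities share a 2% trimmed mean, 350.1 for A arrays and 70.0 for B arrays.

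Each array was scaled to a trimmed mean of 500, which multiplied A values by 1.43 and B values by 7.14, so the filter of 100 is laxer on the B array. Groups followed the tissue label, or the title for forelimb 11 on the A array. Control probe sets (64 per design) were dropped. Probe sets with at least 100 on at least 3 of 6 arrays (15338 on A, 17145 on B) were tested on log2(signal + 32) by a two-sided limma fit (version 3.58.1, R 4.3.3; eBayes with trend) and Benjamini-Hochberg adjustment within a design. Precision is limited by the number of arrays, with median standard errors of 0.16 (A) and 0.23 (B). The fit was also run on simulated data, and its recovery rates are not given here. Symbols came from the platform annotation, updated by gene identifier through a RefSeq table of GRCm38.p6 (20364 of 20393 single-symbol probe sets matched on A, 14499 of 14674 on B). Probe sets of 1 gene were compared within numbered samples by exact permutation tests. Figures used matplotlib 3.10.9 in Python 3.11.15.

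The members and lists were chosen with earlier results of these data known. All member probe sets are named; of each other Wnt list, genes called or else the 2 of smallest p per array are named. Of the endothelial, blood, muscle and nerve markers, limma called 0 of 18 tested on A. At an unadjusted p under 0.05 there were 4 of the 18, namely 2 of 5 blood and 2 of 3 nerve markers. The ectoderm list had 3 of 8 and the mesenchyme list 0 of 8 on A, where 5.84% of all tested genes reached it. No ectoderm or mesenchyme marker was called on A or B, and on B none reached an unadjusted p under 0.05. The 1 other cell type marker tested on B, a muscle marker, was not called.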

Additional observations from a re-analysis of the deposited data

How the results depend on the processing

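No member probe set passed the limma threshold under any alternative run: pseudocounts of 1 and 100, no filter (7 and 11 members tested), a filter at 200 (2 and 7 tested), quantile normalization, values as deposited (3 and 4 tested), no trend, array weights, a block, adjustment over both designs, or leaving out each sample. Members below a stricter filter have no value there. Over all probe sets the 5 calls on the A array were 1 without the filter, 14 with array weights and 8 with the replicate block, and 3 to 9 with 1 sample left out (9 without hindlimb 12, 3 without each other sample). The 2 on the B array were 1 without the filter, 0 without the trend (949 probe sets had an unadjusted p under 0.05 with the trend) and 4 with the replicate block, and 1 to 4 with 1 sample left out (4 without hindlimb 12, 2 without forelimb 13, 1 without each other sample). The cause was not tested.

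Signs turned under at least 1 alternative for 8 of the 14 tested member probe sets. Lef1 on the B array became -4.6e-05 with a pseudocount of 100, -0.042 with quantile normalization, -0.0014 as deposited and -0.014 with array weights, and Lgr4 1433891_at became -0.0086 with quantile normalization. With 1 sample left out the differences ran from -0.035 to 0.35 (Rspo2, A array), -0.044 to 0.23 (Lgr5, A array), -0.24 to 0.0092 (Axin2 1436845_at), -0.15 to 0.069 (Nkd1, A array), -0.054 to 0.15 (Lgr4 1433891_at), -0.58 to 0.060 (Lgr4 1453765_at), -0.20 to 0.15 (Lef1, B array) and -0.018 to 0.40 (Nkd1 1429507_at). Rspo3 was 0.54 to 0.70 and Lef1 on the A array -0.76 to -0.44 over the other settings, with adjusted p of 0.586 to 0.926 and 0.349 to 0.823.

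The replicate block joined consecutive sample numbers, which the labels do not call pairs. Deviations from the limb means correlated by 0.21, 0.11 and 0.076 on the A array and by 0.0022, 0.048 and 0.039 on the B array for these pairs. Hindlimb and forelimb samples of other numbers correlated by -0.15 to 0.063 on the A array and by -0.063 to 0.025 on the B array. On the A array each consecutive pair thus lay above every other pair, and whether samples were paired is not known. With the block Rspo3 had an adjusted p of 0.586 and Lef1 on the A array 0.471, and no member call changed. Leaving out 1 sample was also tried, after seeing the data, on the 16 values of the other Wnt genes of smallest p: 0 changed sign and 10 came over 1.5 times nearer to 0. On A these were Tle2 (-0.19 without forelimb 13), Fbxw11 (0.14) and Wnt11 (-0.15) without forelimb 11, Wnt5b (-0.21) and Fzd4 (-0.30) without hindlimb 14, and Tnfrsf19 (-0.24 without forelimb 25). On B they were Wnt9b and Tle3, given above, Apcdd1 (-0.14 without hindlimb 12) and Dkk1 (-0.23 without hindlimb 26).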
